A study of Mus musculus with 21 samples.

Results

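Of the 5125 domains of monoubiquitinated histone H2B (H2Bub1) listed in mouse J1 embryonic stem (ES) cells differentiated for 4 days, 215 overlapped no domain of the ES list and overlapped, by at least 1 bp, a domain of the list from differentiated cells with Fbxl19 knocked down. These domains were thus chosen by the H2Bub1 lists of the differentiated knockdown, of differentiated cells and of ES cells. A domain with no ES counterpart is called gained here, and a gained or other domain met by a domain of the differentiated knockdown is called kept. The gained and kept domains were 7.15% (interval 6.26 to 8.13) of the 3006 gained domains. This share moves with the list lengths and the rule. It was 2.89% when 50% of a domain had to be covered. With lists of the same number of domains it was 35.9%. That setting shortens the ES list too, so domains that meet an ES domain of the full list can count as gained. As a background, 58.7% of all differentiated domains were gained and 18.9% were kept, both of which the choice of the 215 domains uses. The other 2791 gained domains were absent from the knockdown list. Among the 2119 differentiated domains shared with ES cells, 753 were kept and 1366 were absent.

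H2Bub1 is placed on chromatin by an E3 ligase that contains Rnf20 and is known to follow RNA polymerase II over the bodies of transcribed genes, where it helps later histone methylation. Fbxl19 is an F-box protein whose CXXC zinc finger binds unmethylated CpG, the sequence that makes up CpG islands at many gene starts. By its title, the study concerns recruitment of Rnf20 to CpG islands by Fbxl19 and the effect on H2Bub1, and H2B ubiquitination has been linked to the ability of stem cells to differentiate.

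Chromatin of J1 cells was immunoprecipitated and sequenced (ChIP-seq), and 21 samples in 12 groups were described. H2Bub1 was profiled in 2 samples of Fbxl19 knockdown cells after differentiation, 2 of knockdown ES cells, 3 of ES cells of a clone that overexpressed tagged Fbxl19 more than 5-fold (OE-high), 2 of differentiated cells and 3 of ES cells. Tagged Fbxl19 was pulled down with streptavidin in 2 samples of the OE-high clone and 2 of a clone below the endogenous level (OE-low), and Rnf20 in 1 sample. Per the labels, the OE-low and Rnf20 cells contained BirA, a biotin ligase, each Fbxl19-tagged line was a flag-biotin clone, and ES medium held leukemia inhibitory factor. The labels used here name neither the way of differentiation nor the control for the knockdown. Fbxl19 and Rnf20 were mapped in undifferentiated cells, so their positions were not measured in the state in which the 215 domains were listed. No input sample was named for differentiated knockdown cells.

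Each H2Bub1 list combines samples, so the values below have no spread between replicates and no p-value. Intervals are exact 95% intervals for counting error only. Depth per sample is unknown, and the track lines give only numbers of unstated meaning followed by M (41 for the differentiated knockdown, 36 for differentiated cells). The differentiated knockdown list held 1090 domains over 15.6 Mb, and the differentiated list held 5125 domains over 156 Mb. A domain missing from a list may have less H2Bub1 in each cell or the mark in fewer cells. It may also have the mark unchanged and lie below the threshold of that list. These cannot be told apart here.

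The 215 domains were listed in the differentiated knockdown over only a part of their length. Knockdown domains covered a median of 9200 bp of each (interval 8000 to 10600), whereas the median length in differentiated cells was 30200 bp (interval 25800 to 34000). The median share covered was 41.7% (interval 35.4 to 46.0). Summed over all 215, knockdown domains lay over 3.03 Mb of 8.24 Mb, or 36.7%. Only 8 domains were covered from end to end, 22 were covered for at least 90% and 15 for less than 10%. To call them domains that resist the knockdown therefore holds for their presence in the list and not for their extent.

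A single knockdown domain lay on 208 of the 215, and 2 lay on each of the other 7. These 222 knockdown domains made up 20.4% of the knockdown list, and 154 of them lay wholly inside a gained domain. Their median length of 9000 bp (interval 7800 to 10200) was near that of the 868 other knockdown domains, 7600 bp (interval 7000 to 8400). One of the 222 also touched an ES domain outside the gained domain.

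Longer gained domains were met by the knockdown list more often, and a smaller share of each was covered. Of gained domains under 5 kb 1.73% were kept (7 of 405), of those of 5 to 10 kb 4.82% (27 of 560), of 10 to 20 kb 5.91% (40 of 677), of 20 to 40 kb 9.18% (63 of 686) and of 40 kb and over 11.5% (78 of 678). A longer domain is met by chance more easily, and the part of length in this trend was not tested. The median covered length was 2600, 5400, 8000, 11600 and 14000 bp in these classes, from short to long. The median covered share was 100%, 75%, 56.3%, 35.4% and 24.95% in the same order. The covered length thus differed less between classes than the length of the domains did.

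The kept domains also had higher scores in the differentiated list, a value that belongs to the contrast that chose them. The authors' score, a number of unstated formula, had a median of 12.6 in the 215 domains (range 7.01 to 34.2) and 9.27 in the 2791 gained domains that were absent. With gained domains split into 3 classes of equal number by that score, 26 were kept in the lowest class (2.59%), 45 in the middle class (4.49%) and 144 in the highest class (14.4%). On the knockdown side, the 222 domains had a median score of 8.07 (interval 7.79 to 8.26) and the 868 other knockdown domains 8.50 (interval 8.42 to 8.68).

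The part of a gained domain that was listed in the knockdown lay at the end that carried an Fbxl19 peak. Exactly 1 end had an OE-high Fbxl19 summit within 1 kb in 138 of the 215 domains, both ends in 7 and neither end in 70. In 125 of the 138 (90.6%, interval 84.4 to 94.9) the knockdown stretch lay nearer the end with the summit, in 10 nearer the opposite end, and in 3 at equal distance. Over all kept differentiated domains with a summit at 1 end, the stretch was nearer it in 86.1%. Where 2 knockdown domains lay on a domain, the longer stretch was used. The median gap between the knockdown stretch and the Fbxl19 end was 0 bp, and 3 in 4 gaps were at most 150 bp. The median gap to the opposite end was 14100 bp (interval 8400 to 18200). The Fbxl19 list did not enter the choice of the domains, although the stretches did.

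**Figure D1:**
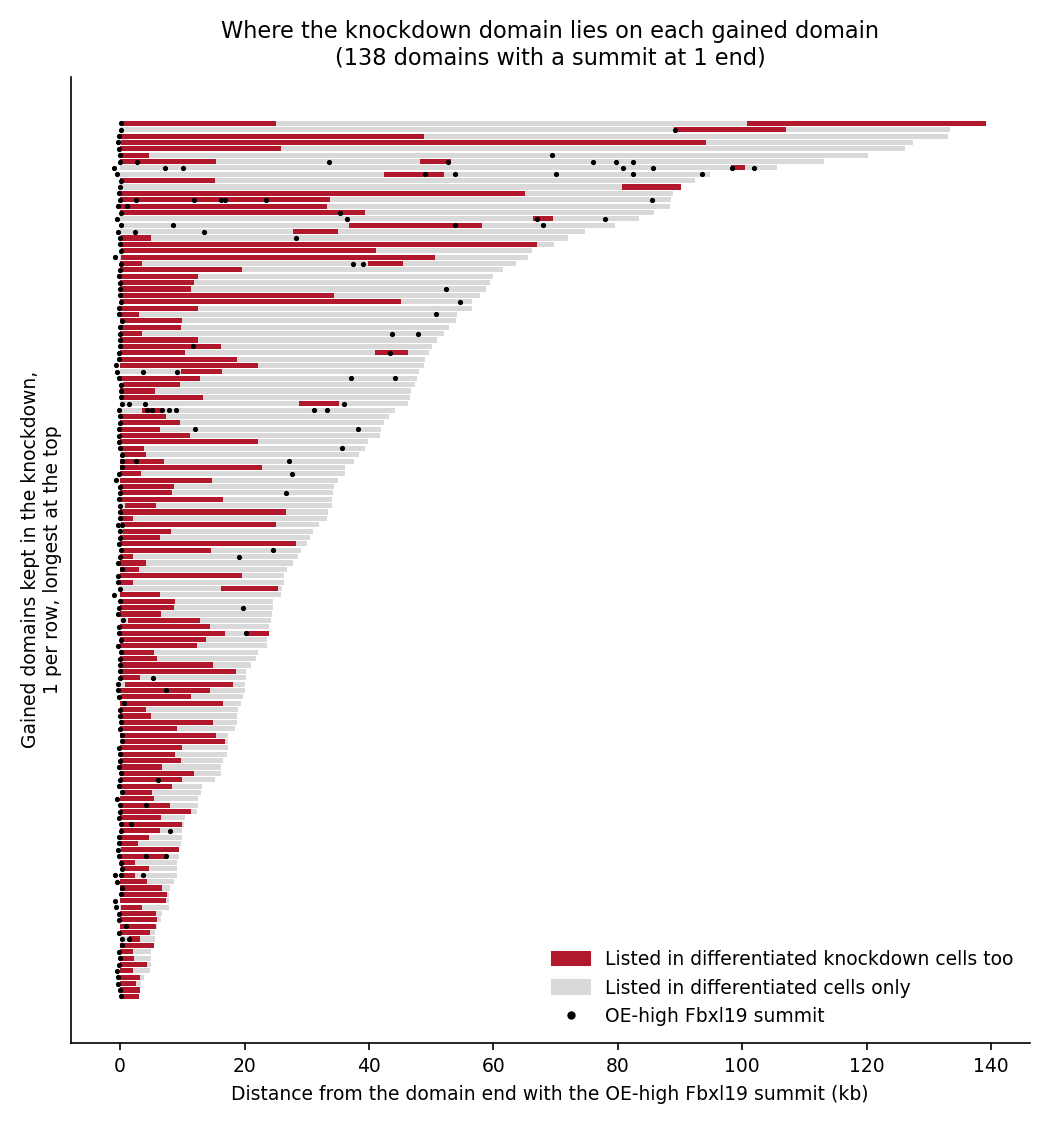
Each row is a gained domain with an OE-high Fbxl19 summit within 1 kb of 1 end (138 domains), turned so that this end lies at 0 on the x axis, in kb. Red marks stretches also listed in differentiated knockdown cells, grey the rest of the domain and black dots OE-high Fbxl19 summits; most red stretches start at 0, and the grey remainder grows with domain length.

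Most of these stretches began at the domain end itself. In 123 of the 138 domains (89.1%, interval 82.7 to 93.8) the knockdown stretch reached to within 1 kb of the Fbxl19 end. Among 110 domains where it reached exactly 1 end and a summit marked exactly 1 end, the end was the same in 107 (97.3%, interval 92.2 to 99.4). Of the 70 domains without a summit at an end, 34 had a knockdown stretch that reached 1 end, 4 had a stretch that reached both ends and 32 had a stretch that reached neither. Of the 138 with a summit at 1 end, these numbers were 110, 16 and 12.

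Moving into the domain from the Fbxl19 end, cover by knockdown domains fell off over about 20 kb. At 0.5 kb from that end 89.1% of 138 domains were covered, at 5.5 kb 70.5% of the 129 domains that reached so far, at 10.5 kb 48.6% of 109, at 20.5 kb 24.4% of 86 and at 30.5 kb 19.7% of 66. From the opposite end the course was different. There 7.97% were covered at 0.5 kb (interval 4.05 to 13.8), 26.4% at 5.5 kb, 27.5% at 10.5 kb and 30.2% at 20.5 kb. Further in, where only the longer domains remain, it was higher, with 46.0% of 50 domains at 40.5 kb (interval 31.8 to 60.7).

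**Figure D2:**
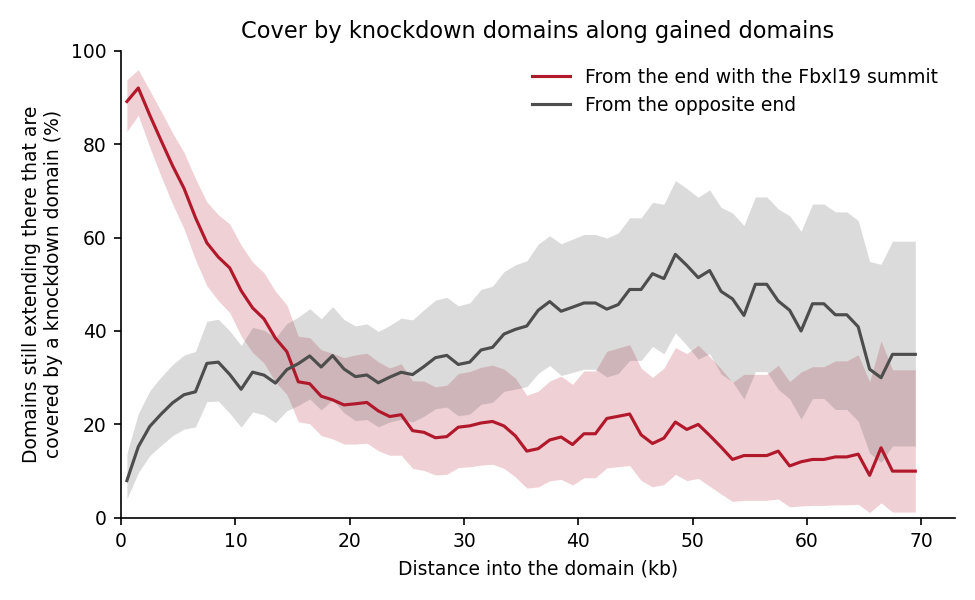
Share of gained domains covered by a differentiated knockdown domain (y axis, percent of the domains that extend to that distance) against distance into the domain in kb, in 1-kb steps with at least 20 domains each; bands are exact 95% intervals. The line from the Fbxl19 end falls from 89.1% at 0.5 kb to 24.4% at 20.5 kb, and the line from the opposite end starts at 7.97%.

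With other marks of an end, or other domain lists, the stretch still lay nearer the marked end in most domains. With summits within 500 bp of an end the share nearer the Fbxl19 end was 91.5%, with 2 kb 89.0%, with the top 50% of OE-high peaks by score 91.1%, and in domains of at least 20 kb 90%. With the top 50% of each H2Bub1 list by score it was 80.8% (interval 69.9 to 89.1). OE-low Fbxl19 summits marked 1 end in 18 domains, and the knockdown stretch lay nearer that end in 16 of them. Midpoints of Rnf20 peaks marked 1 end in 55 domains, with the stretch nearer in 46 (83.6%, interval 71.2 to 92.2). The 80.8% and the 83.6% lay below the interval of the main value, 84.4 to 94.9.

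This arrangement was not shown to be particular to gained domains. The stretch was nearer the Fbxl19 end in 90.6% of the gained and kept domains and in 366 of the 432 such domains shared with ES cells (84.7%, interval 81.0 to 88.0), a difference of 5.86 points with an interval of -1.10 to 11.6. It reached to within 1 kb of that end in 89.1% of the gained and kept domains and in 89.6% of those shared with ES cells (interval 86.3 to 92.3). The median gap to the opposite end was 14100 bp in the gained and kept domains and 7300 bp in those shared with ES cells (interval 6200 to 8600). The median share covered was 41.7% in the gained and kept domains and 50% in all 753 kept domains shared with ES cells (interval 46.2 to 54.2).

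Fbxl19 peaks were found on more of the gained domains that were kept than of those that were absent. An OE-high Fbxl19 peak lay on 183 of the 215 (85.1%, interval 79.6 to 89.6), against 72.3% of all differentiated domains. It lay on 1818 of the 2791 gained and absent domains (65.1%, interval 63.3 to 66.9), which is 19.98 points lower (interval of the difference 14.2 to 24.8). The kept domains shared with ES cells had 84.1% (interval 81.3 to 86.6), and the difference from these was 1.05 points with an interval of -4.98 to 6.34. OE-low Fbxl19 peaks, a shorter list from cells with less of the protein, lay on 35 of the 215 (16.3%, interval 11.6 to 21.9) against 11.9% of all differentiated domains and 8.17% of gained and absent domains (interval 7.18 to 9.25).

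Rnf20 peaks were also more frequent on kept than on absent gained domains. An Rnf20 peak lay on 85 of the 215 domains (39.5%, interval 33.0 to 46.4), against 32.1% of all differentiated domains. Gained and absent domains had 24.0% (interval 22.5 to 25.7), a difference of 15.5 points (interval 8.71 to 22.5). Kept domains shared with ES cells had more, 49.3% (interval 45.6 to 52.9), and the difference of gained and kept domains from these was -9.73 points (interval -17.3 to -1.96). The Rnf20 list comes from a single library.

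Most Rnf20 peaks on the 215 domains came with Fbxl19 on the same domain. Both an OE-high Fbxl19 and an Rnf20 peak lay on 82 domains (38.1%, interval 31.6 to 45.0), Fbxl19 alone on 101, Rnf20 alone on 3 and neither on 29. Of the gained and absent domains, 20.2% had both (interval 18.7 to 21.7) and 31.0% had neither (interval 29.3 to 32.8), against 13.5% with neither in the 215 (interval 9.22 to 18.8). All 3 pulldown lists met on 28 of the 215 domains (13.0%, interval 8.83 to 18.3) and on 4.08% of gained and absent domains (interval 3.38 to 4.89). These combinations were not particular to the 215. Kept domains shared with ES cells had both peaks in 45.4% (interval 41.8 to 49.1) and neither in 12.1% (interval 9.84 to 14.6). All 3 lists met on 13.7% of them (interval 11.3 to 16.3). The OE-high peaks on the 215 domains were about as strong as elsewhere, with a median of 10.95 in the authors' first score (interval 10.6 to 11.4) against 10.7 on gained and absent domains (interval 10.6 to 10.8).

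**Figure D3:**
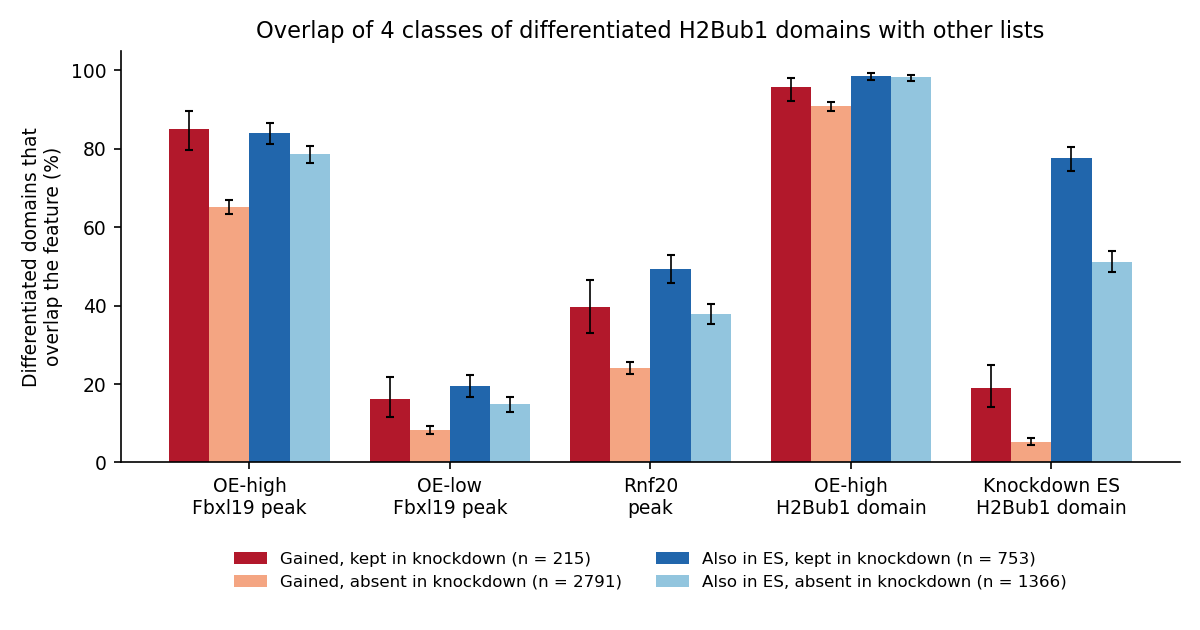
Percent of differentiated H2Bub1 domains (y axis) that overlap a peak or domain of 5 other lists by at least 1 bp, in 4 classes of domains; error bars are exact 95% intervals. The gained and kept domains (n = 215) stand above the gained and absent domains (n = 2791) for each list, by the most for OE-high Fbxl19 peaks (85.1% and 65.1%).

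Longer domains hold more peaks, so the shares were compared within length classes. For OE-high Fbxl19 they were 85.2% in kept and 62.5% in absent gained domains of 5 to 10 kb, 85.0% and 60.8% at 10 to 20 kb, 82.5% and 67.9% at 20 to 40 kb, and 89.7% and 76.0% at 40 kb and over. The intervals overlapped at 5 to 10 kb, 66.3 to 95.8 for kept and 58.2 to 66.6 for absent domains, and at 20 to 40 kb, 70.9 to 90.9 and 64.1 to 71.6. Under 5 kb, with 7 kept domains, the values were 57.1% (interval 18.4 to 90.1) and 55.0%. Rnf20 lay on none of those 7 domains (exact upper limit 41.0%) and on 16.3% of absent domains of that length. For Rnf20 the kept domains had 51.9% and the absent domains 20.5% at 5 to 10 kb, and 50.0% and 33.7% at 40 kb and over. At 10 to 20 kb the intervals overlapped, 25% (interval 12.7 to 41.2) and 20.7% (interval 17.6 to 24.1), and also at 20 to 40 kb, 34.9% (interval 23.3 to 48.0) and 26.2% (interval 22.8 to 29.8). Weighted to the length classes of the kept domains, the difference was 16.7 points for Fbxl19 and 12.7 points for Rnf20.

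**Figure D4:**
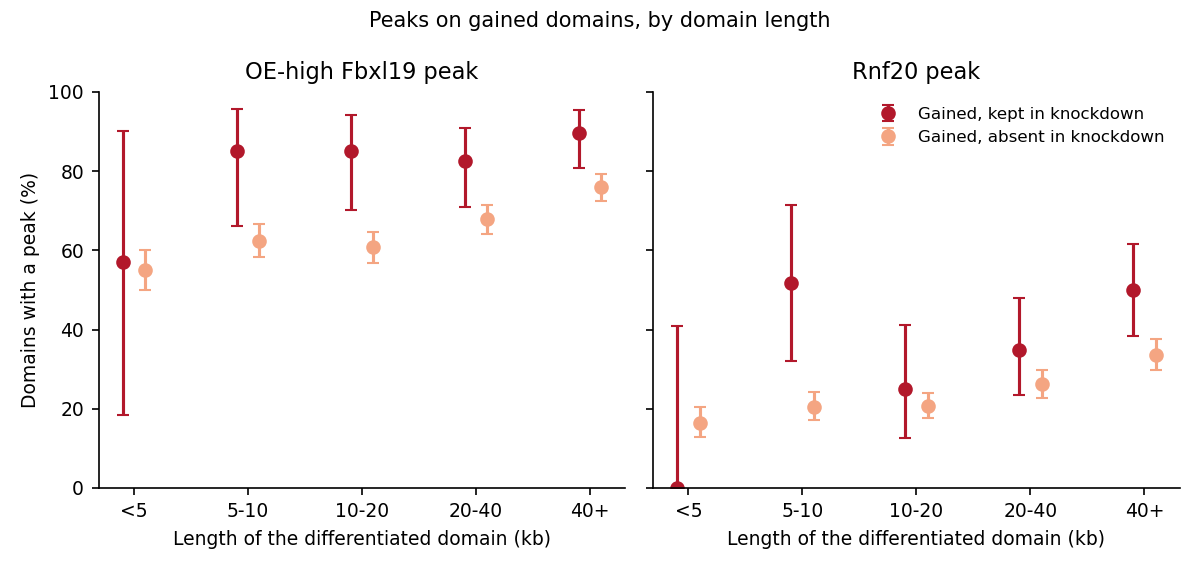
Percent of gained domains with an OE-high Fbxl19 peak (left) or an Rnf20 peak (right) on the y axis, by length of the differentiated domain in kb on the x axis, for domains kept in and absent from the knockdown list; bars are exact 95% intervals. From 5 kb upward the kept domains lie above the absent domains in every class of both panels, with overlapping intervals at 5 to 10 and 20 to 40 kb for Fbxl19 and at 10 to 20 and 20 to 40 kb for Rnf20.

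The shares were also compared within the score classes. Across the 3 score classes, from low to high, OE-high Fbxl19 lay on 88.5%, 82.2% and 85.4% of the kept domains and on 59.5%, 66.7% and 69.8% of the absent domains. Rnf20 lay on 61.5% of the kept domains in the lowest class (16 of 26, interval 40.6 to 79.8), 44.4% in the middle class (interval 29.6 to 60.0) and 34.0% in the highest class (interval 26.3 to 42.4). The absent domains had Rnf20 in 21.8%, 22.9% and 27.9% of cases in the same order. In the highest score class the Rnf20 intervals of kept and absent domains overlapped, with 24.9 to 31.0 for the absent domains. Weighted to length and score classes together, the differences were 14.9 points for Fbxl19 and 11.1 for Rnf20. They were smaller with lists of the same number of domains, at 7.49 points for Fbxl19 (interval 0.678 to 13.9) and 2.65 for Rnf20 (interval -4.79 to 10.2). With the ES list shortened too, the gained domains of that setting are not the same set. When 50% of a domain had to be covered for it to count as kept, 87 domains were left and the differences were 6.02 (interval -4.74 to 15.2) and 2.51 (interval -6.68 to 13.2).

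Within the 215 domains, OE-high Fbxl19 and Rnf20 peaks were denser on the stretches listed in the knockdown than on the rest. For Fbxl19 this did not hold under every setting, and for Rnf20 the only other setting computed left out the domain ends. OE-high Fbxl19 summits numbered 103 over the 3.03 Mb of these stretches, or 3.40 per 100 kb (interval 2.78 to 4.13), and 102 over the other 5.22 Mb, or 1.96 per 100 kb (interval 1.59 to 2.37). The ratio was 1.74 (interval 1.31 to 2.31). It was 1.05 (interval 0.516 to 2.31) for domains covered for at least 50%, and 1.35 (interval 0.992 to 1.86) with lists of the same number of domains. Gained and absent domains had 2.09 summits per 100 kb over their whole length (interval 1.99 to 2.19). With the outer 1 kb at each end of the domains left out, the densities were 1.93 and 1.73 per 100 kb and the ratio 1.11 (interval 0.779 to 1.58), so most of the excess lay at domain ends.

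Rnf20 midpoints were spread in a similar way. Their density was 2.41 per 100 kb on the stretches listed in the knockdown (73 midpoints, interval 1.89 to 3.03) and 1.25 per 100 kb on the rest (65 midpoints, interval 0.962 to 1.59), a ratio of 1.94 (interval 1.37 to 2.75). Away from the ends the ratio was 1.49 (interval 0.993 to 2.23). In kept domains shared with ES cells the contrast was larger, with 3.95 against 1.19 per 100 kb and a ratio of 3.33 (interval 2.78 to 4.002). OE-low Fbxl19 summits were few, 7 on the stretches and 22 on the rest, and their ratio was 0.548 (interval 0.198 to 1.33).

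Counted by domain, 169 of the 215 (78.6%, interval 72.5 to 83.9) had an OE-high Fbxl19 peak on the stretch listed in the knockdown, 64 (29.8%, interval 23.7 to 36.4) an Rnf20 peak and 16 (7.44%, interval 4.31 to 11.8) an OE-low Fbxl19 peak. Of the 183 domains with any OE-high peak, 169 (92.3%, interval 87.5 to 95.8) had it on that stretch. The same held for 64 of 85 domains with Rnf20 and for 16 of 35 with an OE-low peak. No peak of the 3 lists lay on the stretch in 41 domains (19.1%, interval 14.05 to 24.97). Such counts were not made for kept domains shared with ES cells, so these shares are not shown to be particular to the 215.

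Fbxl19 at a domain end was also more frequent in the kept than in the absent gained domains. A summit of the OE-high list lay within 1 kb of at least 1 end in 145 of the 215 domains (67.4%, interval 60.7 to 73.7), against 56.9% of all differentiated domains. Gained and absent domains had 52.3% (interval 50.4 to 54.2), 15.1 points lower (interval of the difference 8.17 to 21.6). Kept domains shared with ES cells had 62.7% (interval 59.1 to 66.1), with a difference of 4.76 points and an interval of -2.79 to 11.9. An OE-high peak anywhere lay on 183 of the 215 domains and on 1818 of the 2791 gained and absent domains. Summits at an end were found in 145 and 1460. Whether ends differ beyond the presence of a peak was not tested, and ends were not compared within length or score classes. Of the 222 knockdown domains on the gained domains, 172 (77.5%, interval 71.4 to 82.8) had a summit within 1 kb of an end of their own, and only 3 of these had it at both ends. Rnf20 midpoints lay within 1 kb of an end in 58 of the 215 (27.0%, interval 21.2 to 33.4), in 17.8% of gained and absent domains (interval 16.4 to 19.3) and in 34.5% of kept domains shared with ES cells (interval 31.1 to 38.0).

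The lists of the other conditions also met the 215 domains. An OE-high H2Bub1 domain, from undifferentiated cells with excess Fbxl19, lay on 206 (95.8%, interval 92.2 to 98.1), against 94.2% of all differentiated domains, a share near that background. It lay on 90.9% of gained and absent domains (interval 89.7 to 91.9). Where it was present, it covered a median of 100% of the gained and kept domain, and its length was 1.03 times that of the differentiated domain (median, interval 1.01 to 1.05). The 215 domains lay wholly inside OE-high domains in 111 cases (51.6%, interval 44.7 to 58.5), and gained and absent domains did so in 52.0% (interval 50.1 to 53.9). The OE-high list covers 246 Mb, so overlap with it is common.

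A part of the 215 domains was listed in knockdown ES cells although the list of unmodified ES cells had no domain there. A knockdown ES domain lay on 41 (19.1%, interval 14.05 to 24.97), against 28.7% of all differentiated domains, many of which are shared with ES cells. Of the gained and absent domains 5.23% met a knockdown ES domain (interval 4.43 to 6.12), a difference of 13.8 points (interval 8.74 to 19.8). With lists of the same number of domains the share was 56.3% and the difference 27.5 points. That setting shortens the ES list too, and 252 domains then counted as gained and kept. Some of these meet an ES domain of the full list, so the 56.3% does not describe the 215 domains. Of the kept domains shared with ES cells, 77.6% met a knockdown ES domain. In 40 of the 41 domains the stretches listed in the 2 knockdown states overlapped each other, and the knockdown ES domains covered a median of 48.0% of the gained domain (interval 32.7 to 80.3). All 41 were listed in OE-high cells too, so they were missing from the ES list alone among the 5 H2Bub1 lists. The other 174 comprised 165 that were also in the OE-high list and 9 that were in the 2 differentiated lists only. In the 3 score classes, from low to high, 19.2%, 11.1% and 21.5% of kept domains met a knockdown ES domain, and 2.97%, 5.33% and 7.69% of absent domains did. The knockdown ES list carries the number 46 in its track line and the ES list 60, and whether a domain lay just under the ES threshold was not tested.

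Most gained and kept domains lay far from the nearest ES domain. The rule leaves out any domain that overlaps an ES domain, so these distances cannot show how often ES domains were extended. The median distance to the nearest ES domain was 227 kb (interval 190 to 323), and 179 kb (interval 165 to 192) for gained and absent domains. Only 8 of the 215 (3.72%, interval 1.62 to 7.20) lay within 20 kb of an ES domain, against 6.49% of gained and absent domains (interval 5.60 to 7.46), and 1 lay within 5 kb.

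The share of gained domains that was kept differed between chromosomes. Over the 19 autosomes the median was 7.48%, with the highest value on chromosome 10 (21 of 172, 12.2%, interval 7.72 to 18.1) and the lowest on chromosome 17 (1 of 125, 0.8%, interval 0.0203 to 4.38). Chromosomes 14 and 18 also had 1 kept domain each, of 100 and 71 gained. The 22 gained domains of chromosome X had none, where 3 counts of the total would be 13.6% and the exact interval reaches to 15.4%. Chromosomes 14, 17 and 18 together, a set picked after the values were seen, kept 3 of 296 gained domains (1.01%, interval 0.210 to 2.93), and the other autosomes 212 of 2688 (7.89%, interval 6.90 to 8.97). For domains shared with ES cells the same sets kept 28.5% (interval 23.3 to 34.1) and 36.7% (interval 34.5 to 39.0). The second value includes chromosomes 1 and 11, which kept 50% (129 of 258) and 44.5% (141 of 317) of such domains. The median over autosomes was 32.2%, so the difference between the 2 sets depends in part on those chromosomes. Gained domains on the 3 chromosomes had a median length of 16300 bp (interval 13800 to 19600) and a median score of 9.18 (interval 8.88 to 9.53), against 17800 bp (interval 16600 to 18800) and 9.39 (interval 9.32 to 9.52) on the other autosomes.

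**Figure D5:**
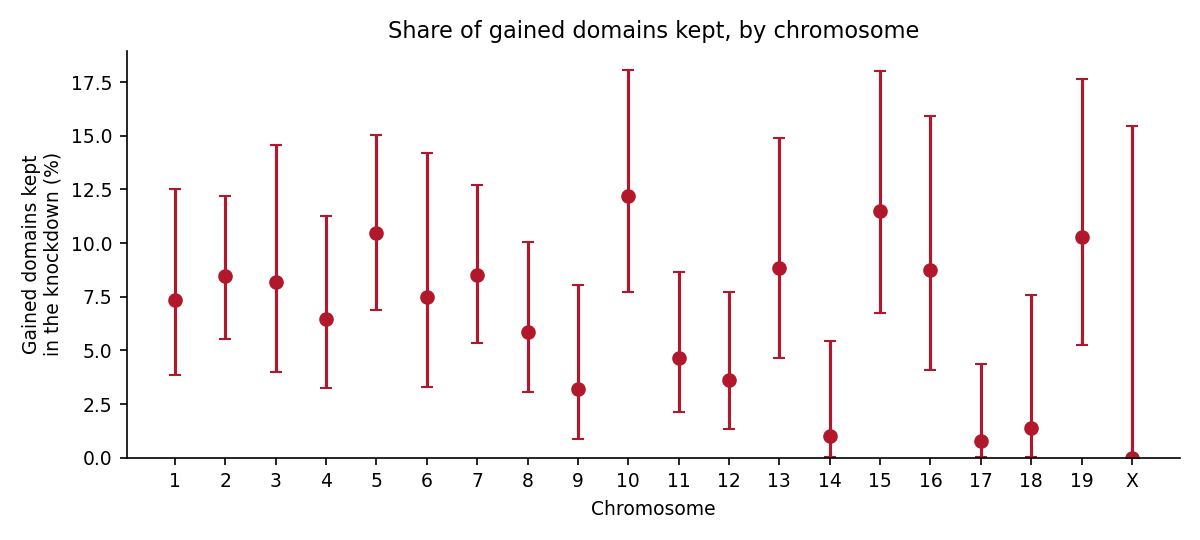
Percent of gained differentiated domains that were kept in the differentiated knockdown (y axis) on each chromosome (x axis), with exact 95% intervals. Values run from 0.8% on chromosome 17 to 12.2% on chromosome 10 among autosomes, with 1 kept domain each on chromosomes 14, 17 and 18.

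Single domains show these features, with positions on mm9 and no gene assigned. The domain with the highest score in both lists, taking the lower of the 2 scores, lay at 80289600 to 80294599 on chromosome 10, and its knockdown domain ran from the same start to 80291599 (score 18.8, against 28.6 in differentiated cells). It held 1 OE-high Fbxl19 peak, at that start, and no Rnf20 peak. Next by the same rule came 79313200 to 79326999 on chromosome 10, where the knockdown domain from 79317400 to 79325199 (score 16.4, against 30.9) reached neither end and no Fbxl19 summit marked an end. A short domain at 5794600 to 5802599 on chromosome 19 had its knockdown domain at 5796400 to 5802399 (score 14.1, against 25.5), with 2 OE-high Fbxl19 peaks, 1 OE-low peak and 3 Rnf20 peaks. At 182653600 to 182683799 on chromosome 1 the knockdown domain covered 27.2% and 3 knockdown ES domains were listed as well.

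Some of the domains carried many peaks. A domain of 113200 bp at 52071800 to 52184999 on chromosome 7 held 7 OE-high Fbxl19 peaks, 1 OE-low peak and 6 Rnf20 peaks, and knockdown domains covered 18.02% of it, the longer of them starting at the lower end, where a summit lay. The most OE-high peaks, 8, with 1 OE-low and 9 Rnf20 peaks, lay on 87180000 to 87224199 on chromosome 8, of which the knockdown domain covered 7.24%. At 32006600 to 32095199 on chromosome 2 there were 7 OE-high peaks without Rnf20, and the knockdown domain covered 38.1% from the lower end.

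The longest of the 215 domains, 174000 bp at 4039800 to 4213799 on chromosome 16, was covered for 34.3% by a knockdown domain that ran past its upper end to 4214599. It had 1 OE-high and 1 OE-low Fbxl19 peak, neither end was marked by a summit, and the nearest ES domain was 4416 kb away. The largest overlap, 94000 bp or 73.8%, was at 94791400 to 94918799 on chromosome 16, with a single OE-high Fbxl19 peak at the lower end. At 59476000 to 59545799 on chromosome 11 the overlap was 96.0%, again from the end with the only OE-high peak. The domain at 145663200 to 145724999 on chromosome 5 was covered wholly, with no peak of any pulldown list. At 41083000 to 41222199 on chromosome 4, 2 knockdown domains lay near opposite ends. The longer (38400 bp) began at the lower end, and the other lay 0.4 to 25 kb inside the upper end, where the Fbxl19 summit lay.

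All 3 pulldown lists met on the stretch listed in the knockdown in 10 domains. One, at 98760600 to 98766199 on chromosome 15, had a knockdown score of 11.7 and only 1800 bp covered. Others were 79727800 to 79758599 and 80218000 to 80267599 on chromosome 10, and 108384600 to 108408599 and 112302600 to 112428799 on chromosome 8, with 38.3%, 31.5%, 86.7% and 20.4% covered.

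At the edge of the rule, the smallest overlaps with a knockdown domain were 1800, 1800 and 2000 bp, on chromosomes 15, 2 and 1. The nearest gained domains outside it lay 400, 2200 and 3200 bp from a knockdown domain. The first of these, 108379000 to 108383799 on chromosome 8, faced the knockdown domain that begins at 108384200 and lies on the neighbouring gained and kept domain. Towards ES cells, the closest of the 215 domains was 3.2 kb from an ES domain, at 108247000 to 108257599 on chromosome 9, and it was covered wholly by a knockdown domain that extended to 108208800.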

How the data were processed

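The data were the lists of peaks or domains that the authors deposited for 8 of 12 groups. BWA 0.5.9-r16, MACS and mm9 are named in the submitters' processing notes without their roles. Per the file headers, the H2Bub1 lists end in BCP, the name of a broad-domain caller. Each domain has a score of the authors and its length in base pairs, both deposited. The Fbxl19 lists have no header, and no caller or threshold was stated for them. For ranking, the first score column the authors deposited for them was taken. Lists were taken as deposited; 1 of the 3 OE-high H2Bub1 samples names no list in its label. H2Bub1 and Rnf20 starts were read as counted from 0 and Fbxl19 starts from 1, and positions are printed counted from 1.

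Groups came from sample titles. Domains were classed by overlap of at least 1 bp. Shares have Clopper-Pearson intervals, medians order-statistic intervals, and densities and ratios Poisson and conditional binomial intervals, all at 95%. The interval of a difference adds both intervals in squares. The combined lists allow no test between samples. The domains and lists were chosen with earlier results of these data known. Domains named in the text have the highest lower score of both lists, the greatest length, the largest or smallest overlap, the most OE-high peaks, all pulldown lists on the stretch, or the least distance to the ES list, and not all of them are printed. Alternatives varied overlap, score, list size, length, chromosomes and peak list. Without an mm9 genome or annotation, no gene, promoter or CpG island was assigned and no sequence is shown. Python 3.11.15, NumPy 2.4.6, SciPy 1.17.1 and matplotlib 3.10.9 were used. The code for overlaps and for the position of the stretch was checked on simulated data first, and the code for the 95% intervals was not.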

Additional observations from a re-analysis of the deposited data

How the results depend on the processing

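Of 124 recomputed values of 13 results, 94 stayed within the interval of the reported value, or within 1.5 times it for the number of domains, 29 moved outside it and 1 turned round. Excluding ES domains within 5 kb, dropping H2Bub1 domains under 2 kb, autosomes alone, a distance of 1 kb for overlaps, leaving out chromosomes 1 and 11, and weighting to length or score classes moved none. The last 2 settings, the position of the stretch with its own settings and the knockdown ES difference were added after the data were seen.

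Asking for 50% of the domain to be covered left 87 domains, 2.89% of gained domains, with a median of 75% covered. Fbxl19 then lay on 72.4% (6.02 points above absent domains), Rnf20 on 27.6% (2.51 points) and OE-high H2Bub1 on 91.95%, the density ratio was 1.05 and 70.5% of knockdown domains had a summit at an end. With the top 50% of each H2Bub1 list there were 131 domains, the Fbxl19 difference was 11.01 points, OE-high H2Bub1 lay on 90.8%, a summit at the end on 71.2%, and the stretch was nearer the Fbxl19 end in 80.8%. With lists of the same size 35.9% of gained domains were kept, 60.9% of each was covered, the differences were 7.49 points for Fbxl19, 2.65 for Rnf20 and 27.5 for knockdown ES domains, and OE-high and knockdown ES domains lay on 99.6% and 56.3%. OE-low peaks gave 16.3% with Fbxl19, a difference of 8.11 points, 11.7% with a summit at an end and a density ratio of 0.548 in place of 1.74, from 29 summits. The top 50% of OE-high peaks gave 54.4% and 45.0%, the top 50% of Rnf20 peaks 27.4%, and Rnf20 midpoints put 83.6% of stretches nearer the marked end. Smaller peak lists lower such shares by construction. With the top 50% of each H2Bub1 list, or lists of the same size, the ES list is shortened too. Domains that meet an ES domain of the full list can then count as gained. How much of each move comes from this was not tested, nor was the cause of the other moves.

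No paired analysis was possible because the lists combine the replicates, and for the same reason no replicate was left out. Depth is unknown, so a domain absent from a list was not detected at its threshold.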

Other observations

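The side of the domains was uneven. Where the stretch listed in the knockdown reached 1 end of a gained domain, it was the end with the lower coordinate in 97 of 149 (65.1%, interval 56.9 to 72.7), and in 268 of 488 kept domains shared with ES cells (54.9%, interval 50.4 to 59.4). An OE-high Fbxl19 summit at 1 end lay at the lower end in 83 of 138 gained and kept domains (60.1%, interval 51.5 to 68.4), in 53.1% of gained and absent domains (interval 50.4 to 55.7) and in 50.0% of kept domains shared with ES cells (interval 45.2 to 54.8). This count was made after the data were seen.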
